A study of Homo sapiens with 7 samples.

Results

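The GATA factors were examined as 5 genes, GATA2, GATA3, GATA4, GATA5 and GATA6, of the 20163 protein-coding genes that GENCODE 44 places on hg19. The genes were chosen by name, with earlier results of these data known. Every deposited peak over the gene body or within 10 kb of it was taken, which gave 51 of the 240889 peaks in 6 lists. The cells were HCT116, a human colorectal carcinoma line, for which the labels name no treatment, and each library came from 1 well of 200000 cells sheared for 6 min by PIXUL, a sonicator for microplates. Each antibody (H3K4me3, H3K9Ac, H3K4me1, H3K27me3, H3K36me3 and CTCF) gave 1 library, so no value below has a replicate error and no difference between genes was tested. H3K27Ac was not analysed here. Of the 51 peaks, 19 passed the limits that the study sets for its peaks (the filter). These are a q-value below 1e-03 with a fold enrichment above 2 for H3K4me1 and H3K27me3, and a q-value below 1e-10 with a fold enrichment above 5 for the other histone marks, here applied to CTCF too. Over the whole lists, the filter kept 79.1% of peaks for H3K4me3, 63.9% for H3K4me1, 54.8% for CTCF and 37.2% for H3K9Ac. It kept 2.81% for H3K27me3 and 0.225% for H3K36me3, so nearly all H3K27me3 and H3K36me3 peaks were below it. Fold enrichment is a linear ratio over the background of the peak caller and is 1 value for a whole peak.

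GATA factors are transcription factors that bind the sequence GATA through zinc fingers. GATA2 and GATA3 are best known from blood and immune cells, and GATA3 also from the mammary gland, whereas GATA4, GATA5 and GATA6 act in the heart and in tissues of endodermal origin. In the intestine, GATA6 is expressed along the colon and GATA4 mainly in the upper small intestine, and the promoters of GATA4 and GATA5 are often DNA methylated in colorectal cancer. H3K4me3 and H3K9Ac are found at active promoters, H3K4me1 at enhancers and promoter flanks, H3K36me3 over transcribed gene bodies and H3K27me3 over genes held silent by Polycomb proteins. CTCF occupies insulators and the anchors of chromatin loops.

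The promoter sequences below are shown because some TSSs (transcription start sites) of GATA2 lay inside the peaks of the active marks and others, the canonical among them, outside. They are the 250 bases before the TSS, 5′ to 3′ on the strand of the gene, from RefSeq (GRCh38.p14), and each was matched without a difference to hg19. Capitals mark CpG dinucleotides. The distal GATA2 promoter, at chr3:128212045-128212294 on the minus strand, belongs to the canonical transcript and had no H3K4me3 peak. The proximal GATA2 promoter, at chr3:128207374-128207623 on the minus strand, lay inside the H3K4me3 peak. The sequences hold 24 and 18 CpG dinucleotides in turn.
GATA2 distal promoter: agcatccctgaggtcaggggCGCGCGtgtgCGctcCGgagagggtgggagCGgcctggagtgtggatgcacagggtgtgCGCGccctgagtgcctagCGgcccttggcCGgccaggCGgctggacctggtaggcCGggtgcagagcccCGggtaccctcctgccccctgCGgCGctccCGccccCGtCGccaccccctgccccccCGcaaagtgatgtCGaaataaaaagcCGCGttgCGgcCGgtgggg
GATA2 proximal promoter: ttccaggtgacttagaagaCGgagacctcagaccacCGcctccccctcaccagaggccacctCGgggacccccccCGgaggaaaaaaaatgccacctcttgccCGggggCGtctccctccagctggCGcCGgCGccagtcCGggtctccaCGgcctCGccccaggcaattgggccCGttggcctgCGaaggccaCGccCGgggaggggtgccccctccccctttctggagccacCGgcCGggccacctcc
The canonical GATA3 promoter, at chr10:8096401-8096650 on the plus strand, holds 26 CpG dinucleotides and the GATA6 promoter, at chr18:19749300-19749549 on the plus strand, holds 16. Both overlapped a peak of H3K4me3 past the filter.
GATA3 promoter: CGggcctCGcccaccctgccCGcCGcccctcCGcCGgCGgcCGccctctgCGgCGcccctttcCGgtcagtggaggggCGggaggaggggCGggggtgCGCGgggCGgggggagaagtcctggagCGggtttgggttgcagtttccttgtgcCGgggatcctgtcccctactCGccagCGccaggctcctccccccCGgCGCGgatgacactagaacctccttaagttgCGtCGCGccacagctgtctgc
GATA6 promoter: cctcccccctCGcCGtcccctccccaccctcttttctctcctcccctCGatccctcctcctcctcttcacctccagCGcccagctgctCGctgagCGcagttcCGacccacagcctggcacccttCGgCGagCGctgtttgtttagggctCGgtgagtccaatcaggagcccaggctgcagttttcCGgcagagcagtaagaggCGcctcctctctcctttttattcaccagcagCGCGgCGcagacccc
The RefSeq table held 9 promoters of the members, 2 for GATA2, 6 for GATA3 and 1 for GATA6, and none was matched for GATA4 and GATA5. The letters GATAA, searched on both strands of the 300 bases around each start (250 before and 50 after), were present in 1 of these 9 promoters, against 22.7% of the 35116 promoters of the table. That promoter was one of GATA3, 5769 bp downstream of the canonical TSS, and it overlapped no deposited peak. With 6 of the 9 promoters from GATA3, they are not independent, and the count is too small to set them apart from this share. Their median number of CpG dinucleotides was 22, against 14 for all promoters of the table, and no test was made.

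GATA2 (ENSG00000179348) lies on the minus strand of chromosome 3 from 128198270 to 128212044. It carried the highest H3K4me3 and H3K9Ac fold enrichments of the family, and these marks were found at its proximal promoter and not at the canonical TSS. The H3K4me3 peak (128205390 to 128209573) had a fold enrichment of 26.9 (−log10 q-value 86.2.) This placed it from 2471 to 6654 bp downstream of the canonical TSS, over parts of introns 1 and 2 and the whole of exon 2 of that transcript. The H3K9Ac peak, from 128203964 to 128209771, contained it and had a fold enrichment of 20.1. The H3K4me1 peak, from 128205425 to 128209875, covered 99.2% of the H3K4me3 peak and had a fold enrichment of 5.76. All 3 peaks contained the same 4 of the 10 annotated TSSs of GATA2 and the TSS of the antisense long non-coding RNA GATA2-AS1. ChIP reads carry no strand, so marks of GATA2 and of GATA2-AS1 could not be told apart.

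The fold enrichment of the GATA2 H3K9Ac peak was above that of 94.0% of the 10142 H3K9Ac peaks past the filter at coding TSSs. The H3K4me3 peak had a higher fold enrichment than 71.7% of the 10456 H3K4me3 peaks of this kind and, at 4184 bp, was wider than 97.6% of them. H3K36me3 was listed on both sides of this block, and at the 3′ end it overlapped the H3K4me3 peak by 455 bp and the H3K9Ac peak by 1881 bp. A peak of 8094 bp, from 128197751 to 128205844, ran from exon 2 past the 3′ end of the gene with a fold enrichment of 3.40. A peak of 2228 bp, from 128210175 to 128212402, contained the canonical TSS and exon 1 with a fold enrichment of 4.15. Their −log10 q-values, 2.40 and 3.88, were below the filter, which kept 0.225% of the H3K36me3 list. Their fold enrichments were above those of 81.2% and 95.9% of that list in turn. Together these peaks covered 68.6% of the GATA2 body, and at least this share was covered by deposited H3K36me3 peaks in 17.1% of coding genes.

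CTCF was listed 3 times at GATA2. The peak past the filter, from 128216466 to 128217178, lay 4422 bp upstream of the canonical TSS within GATA2-AS1 and had a fold enrichment of 19.9, above that of 97.4% of the deposited CTCF peaks. The other CTCF peaks, from 128208190 to 128209104 inside the H3K4me3 peak and from 128221722 to 128222404 at the edge of the region, had fold enrichments of 3.26 and 6.04 and were below the filter. The sequences under these peaks are shown with the closest match to the CTCF core sequence in capitals, on the strand of the match, with 20 bases on each side. None matched all 12 bases of the core, and each match had 1 mismatch. In the peak past the filter the match lay on the minus strand at 128216855 to 128216866, at 55.3% of the length of the peak, near its centre.
CTCF upstream of GATA2, past the filter: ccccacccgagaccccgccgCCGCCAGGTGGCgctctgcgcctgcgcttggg
CTCF in the GATA2 H3K4me3 peak, below the filter: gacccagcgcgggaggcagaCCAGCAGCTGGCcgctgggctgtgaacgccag
CTCF at the edge of the GATA2 region, below the filter: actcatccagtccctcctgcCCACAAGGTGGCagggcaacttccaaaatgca
A core with at most 1 mismatch was present in 65.9% of all CTCF peaks past the filter, and an exact core in 22.4%.

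**Figure D1:**
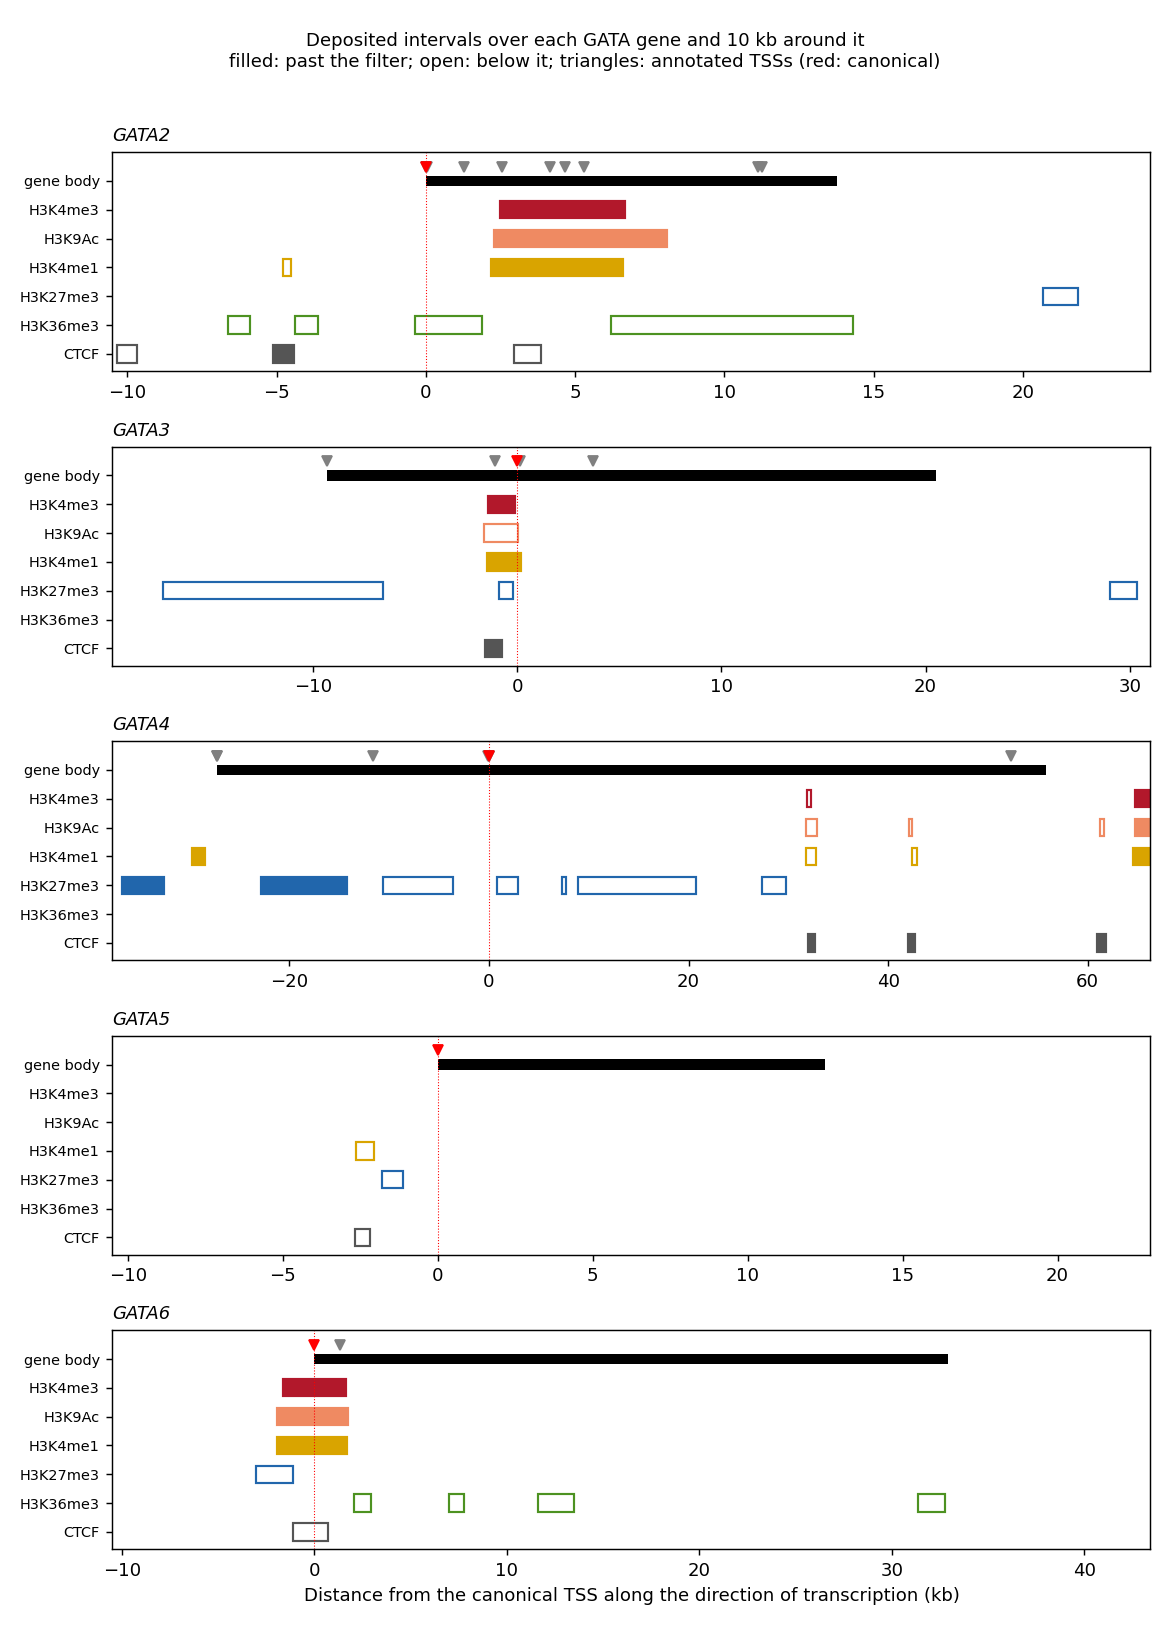
Deposited peaks over each GATA gene and 10 kb around it, drawn by distance from the canonical TSS in kb along the direction of transcription, with 1 row for each mark. Filled bars are peaks past the filter, open bars are below it, the black bar is the gene body and triangles are annotated TSSs, red for the canonical. GATA2 and GATA6 have blocks of H3K4me3, H3K9Ac and H3K4me1, which for GATA2 begin 2169 bp or more downstream of the canonical TSS, GATA4 has a row of H3K27me3 peaks and GATA5 has no filled bar.

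GATA6 (ENSG00000141448), the family member known from the colon epithelium, lies on the plus strand of chromosome 18 from 19749550 to 19782491. Its active marks formed a block around the canonical TSS. The H3K4me3 peak (19747929 to 19751169) reached from -1621 to 1619 bp relative to this TSS and had a fold enrichment of 20.1 (−log10 q-value 59.2.) The H3K9Ac peak (19747615 to 19751308, fold enrichment 11.8) and the H3K4me1 peak (19747622 to 19751258, fold enrichment 4.47) both contained it. Each of these peaks held both annotated TSSs of GATA6. The H3K9Ac and H3K4me1 peaks also held the TSS of GATA6-AS1, a divergent long non-coding RNA gene whose TSS lies 1808 bp from that of GATA6. The H3K4me3 peak was wider than 92.1% of the H3K4me3 peaks past the filter at coding TSSs, whereas its fold enrichment was higher than 38.9% of them.

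Over the GATA6 body, 4 H3K36me3 peaks were listed, all below the filter, with fold enrichments between 2.65 and 3.04. They lay in exon 2 and intron 2, around exon 3, over exons 4 to 6 and in exon 7, and covered 15.1% of the body. An H3K27me3 peak below the filter, from 19746500 to 19748421 (fold enrichment 3.48, −log10 q-value 2.34), lay over the TSS of GATA6-AS1 and shared 493 bp with the upstream end of the H3K4me3 peak. A CTCF peak below the filter, from 19748442 to 19750254 (fold enrichment 4.42), lay inside the H3K4me3 peak and held no core sequence, also with 1 mismatch allowed. The nearest CTCF peaks past the filter were 171455 bp from the 5′ end and 176066 bp from the 3′ end of the gene.

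GATA3 (ENSG00000107485), a regulator of T cells and of luminal mammary cells, lies on the plus strand of chromosome 10 from 8087341 to 8117161. Its promoter carried H3K4me3 and H3K4me1 past the filter, with weak H3K4me3, strong H3K4me1 and a CTCF peak. The H3K4me3 peak, from 8095204 to 8096562, had a fold enrichment of 7.85 and ended 89 bp upstream of the canonical TSS. Only 1.94% of the H3K4me3 peaks past the filter at coding TSSs had a lower fold enrichment. The H3K4me1 peak, from 8095202 to 8096835, had a fold enrichment of 6.70, above that of 89.9% of the 9152 H3K4me1 peaks past the filter at coding TSSs. The H3K9Ac peak, from 8095050 to 8096712, had a fold enrichment of 5.26 (−log10 q-value 6.63), and failed the filter on the q-value. Thus the order of the members differed between marks: by H3K4me3 at the promoter it was GATA2, GATA6 and GATA3, and by H3K4me1 it was GATA3, GATA2 and GATA6. With 1 library for each mark, the error of these orders is unknown.

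A CTCF peak past the filter, from 8095087 to 8095893 with a fold enrichment of 16.4, overlapped the GATA3 H3K4me3 peak by 690 bp. It contained the TSS of the antisense long non-coding RNA GATA3-AS1 and that of a GATA3 transcript that starts 1084 bp upstream of the canonical TSS. It held no core sequence, also with 1 mismatch allowed. The next CTCF peaks past the filter lay 172752 bp from the 5′ end and 1133861 bp from the 3′ end of GATA3. The combination of H3K4me3, H3K4me1 and CTCF without H3K9Ac at the canonical TSS was found in 32 coding genes (0.159%), GATA3 included, and the H3K9Ac peak that fell below the filter is part of it. H3K27me3 was listed 3 times at GATA3, each time below the filter. A peak of 10738 bp, from 8079339 to 8090076 (fold enrichment 3.65, −log10 q-value 2.74), contained the most upstream TSS of GATA3. A peak of 648 bp, from 8095783 to 8096430 (fold enrichment 2.79), lay wholly inside the H3K4me3 peak, and a peak of 1339 bp (2.89) lay downstream of the gene. No H3K36me3 peak was listed in the GATA3 region.

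GATA4 (ENSG00000136574), a cardiac and intestinal factor, lies on the plus strand of chromosome 8 from 11534468 to 11617511 and has the longest body of the family, 83044 bp. No peak of H3K4me3, H3K9Ac or H3K4me1 was listed within 1 kb of any of its 8 annotated TSSs. Of the 8, 5 had an H3K27me3 peak below the filter within that distance. A deposited H3K27me3 peak within 1 kb of any annotated TSS was found in 13.3% of coding genes. The GATA4 TSSs at 11561660, 11561711, 11561713 and 11561731 shared the same peak (fold enrichment 3.45), so the 5 TSSs are not independent. H3K27me3 was the most widespread mark: 7 peaks, from 425 to 11856 bp wide, covered 35.5% of the region and 39.0% of the body. At least this share of the body was covered by deposited H3K27me3 peaks in 5.66% of coding genes. Of the 7 peaks, 2 passed the filter. The peak from 11538891 to 11547512, within the body and upstream of the canonical TSS, had a fold enrichment of 3.87 (−log10 q-value 3.07.) The peak from 11524977 to 11529166, upstream of the gene, had a fold enrichment of 3.52 (−log10 q-value 3.15.) Both q-values were close to the limit of the filter. The other 5 peaks had fold enrichments between 2.97 and 3.64, and the peak from 11562542 to 11564569 in intron 1, 831 bp downstream of the canonical TSS, was the nearest to it.

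CTCF peaks past the filter numbered 3 in the GATA4 region of 103044 bp, against 1 in the GATA2 region of 33775 bp and 1 in the GATA3 region of 49821 bp. They numbered 0 in the GATA5 region of 32499 bp and 0 in the GATA6 region of 52942 bp. The GATA4 peaks from 11593670 to 11594409 (fold enrichment 16.4) and from 11603702 to 11604367 (10.7) lay in intron 2. The GATA4 peak from 11622690 to 11623525 (13.6) lay downstream of the gene. Each overlapped an H3K9Ac peak below the filter, with fold enrichments of 5.23, 3.13 and 3.27. The first also overlapped H3K4me3 (4.62) and H3K4me1 (3.40) below the filter, and the second H3K4me1 (3.57). All 7 H3K27me3 peaks lay on the 5′ side of the first of these CTCF peaks, and the nearest of them ended at 11591436. Separately, H3K4me1 passed the filter from 11531902 to 11533211 (fold enrichment 4.31), between the H3K27me3 peaks past the filter. The remaining active peaks of the region, H3K4me3 (fold enrichment 18.96), H3K9Ac (14.1) and H3K4me1 (4.13), contained the TSS of NEIL2, a DNA glycosylase gene downstream of GATA4, and are not marks of a GATA4 promoter.

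GATA5 (ENSG00000130700), known from the heart and the endoderm, lies on the minus strand of chromosome 20 from 61038553 to 61051051. No peak passed the filter over the gene or within 10 kb of it, and no deposited peak overlapped the body. Upstream of the TSS, 3 peaks were listed below the filter. H3K27me3, from 61052180 to 61052858, had a fold enrichment of 2.65. H3K4me1, from 61053120 to 61053694, had a fold enrichment of 3.14, and CTCF, from 61053226 to 61053722, had a fold enrichment of 5.40 (−log10 q-value 6.33.) The latter peaks overlapped each other and a long non-coding RNA gene that has no symbol in the annotation. The nearest CTCF peaks past the filter were 19200 bp from the 5′ end and 52477 bp from the 3′ end of GATA5. As the lists hold no counts and the depth of the libraries is unknown, peaks not listed may have been below detection.

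**Figure D2:**
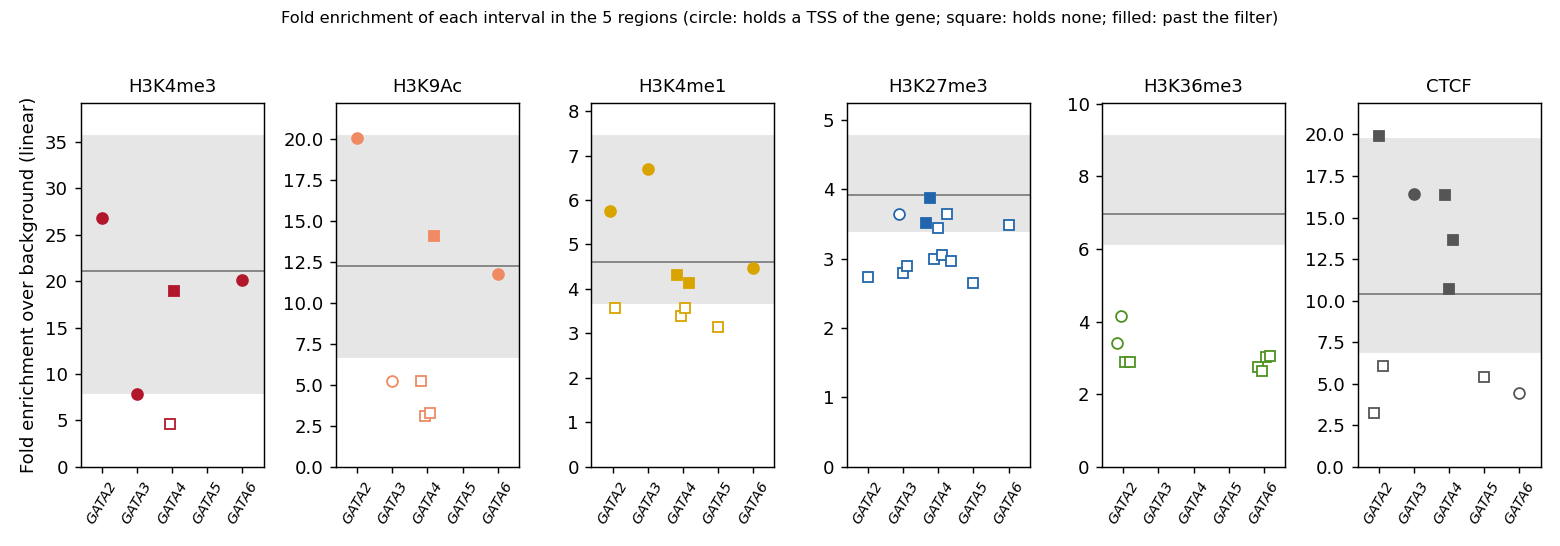
Fold enrichment (linear, y axis) of every deposited peak in the regions of the 5 GATA genes (x axis), with 1 panel for each mark. Circles contain a TSS of the gene, squares contain none, filled symbols are past the filter, and the grey band and line give the 5th to 95th percentile and the median of all peaks past the filter in that list. GATA2 is highest for H3K4me3 and H3K9Ac and GATA3 for H3K4me1, and no H3K36me3 peak reaches the band.

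The members were set beside all coding genes with the same rule, a peak past the filter within 1 kb of the canonical TSS. H3K4me3 was called at 2 of 5 members (GATA3 and GATA6), against 59.1% of coding genes. H3K9Ac was called at 1 (GATA6), against 58.5%, and H3K4me1 at 2 (GATA3 and GATA6), against 49.1%. CTCF was called at GATA3, against 13.6% of coding genes. H3K27me3 and H3K36me3 were called at 0 members, and at 1.22% and 0.298% of coding genes. Taking any annotated TSS moved GATA2 to the marked genes, with 3 of 5 members for H3K4me3 (against 61.8%), 2 for H3K9Ac (61.1%) and 3 for H3K4me1 (55.5%). Counts over 5 genes are too small to set the members apart from these shares, and no test was made. GATA4 and GATA5 shared the absence of all 6 marks past the filter at any TSS with 5852 coding genes (29.0%), whereas GATA2 and GATA6 shared H3K4me3, H3K9Ac and H3K4me1 with 6569 (32.6%).

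Over the body and 10 kb around it, peaks past the filter were found at 4 of 5 members for H3K4me3 (against 69.1% of coding genes), 3 for H3K9Ac (68.3%), 4 for H3K4me1 (71.9%) and 3 for CTCF (62.4%). The H3K4me3 and H3K9Ac calls of GATA4 in this window are those at NEIL2. H3K27me3 past the filter was found at 1 member, GATA4, against 3.94%. Counting any deposited peak, H3K27me3 was listed at 5 of 5 members, against 30.0% of coding genes. This count grows with the length of the window, which was 32499 to 103044 bp for the members, and 11 of the 13 peaks behind it were below the filter. At GATA2 the H3K27me3 peak (fold enrichment 2.74) lay downstream of the gene in DNAJB8-AS1. Any deposited H3K36me3 peak over the body was found at 2 of 5 members, GATA2 and GATA6, against 56.3%. Both are the members with H3K9Ac past the filter at a TSS.

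**Figure D3:**
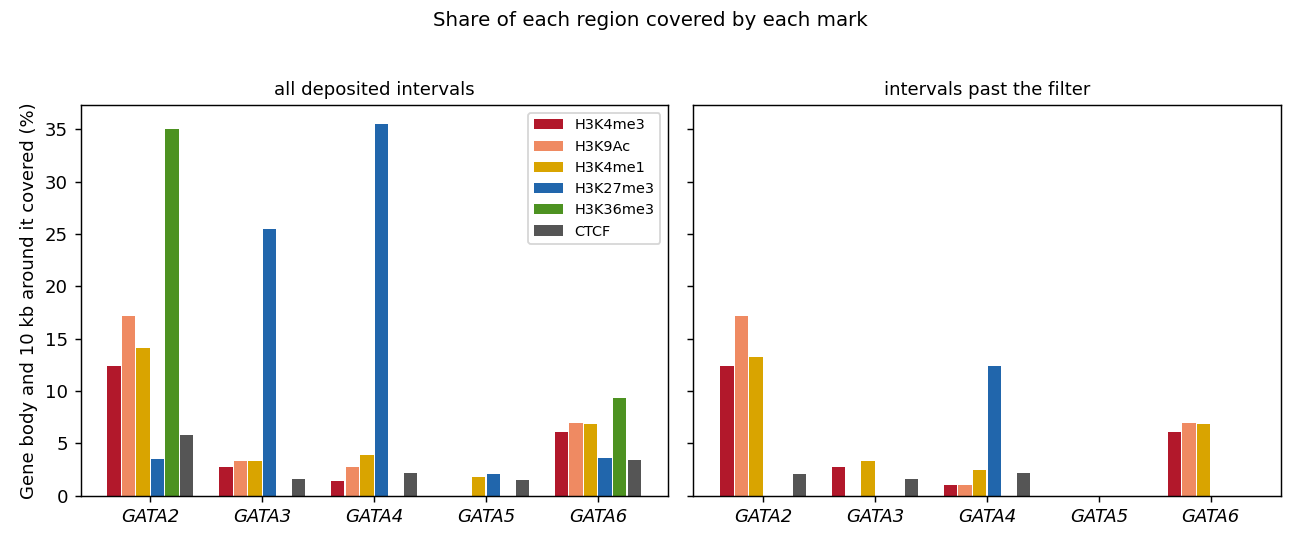
Share of the gene body and 10 kb around it (%, y axis) covered by each mark at the 5 GATA genes, for all deposited peaks (left) and for peaks past the filter (right), with 1 bar for each mark. H3K36me3 covers 35.0% of the GATA2 region and H3K27me3 35.5% of the GATA4 region among deposited peaks, and past the filter only H3K27me3 at GATA4 remains of these, at 12.4%.

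Marks also met each other at the members. Of the 3 H3K4me3 peaks past the filter that held a TSS of GATA2, GATA3 or GATA6, those of GATA3 and GATA6 overlapped a deposited H3K27me3 peak. Across the list, 3.99% of the 12749 H3K4me3 peaks past the filter overlapped a deposited H3K27me3 peak and 0.910% an H3K27me3 peak past the filter. With no H3K27me3 peak past the filter at GATA3 or GATA6, neither promoter held both marks by the limits of the study. These limits kept only 2.81% of the 55270 deposited H3K27me3 peaks, so failing them does not show that the mark was absent. The overlapping H3K27me3 peak of GATA6 had a higher fold enrichment than 91.9% of that list, and the overlapping peak of GATA3 than 31.5%. Of the 5 CTCF peaks past the filter in the regions, 4 overlapped a deposited H3K9Ac peak (against 34.0% of all CTCF peaks past the filter), 4 an H3K4me1 peak (37.2%) and 2 an H3K4me3 peak (15.3%). None of the 5 held an exact core sequence, and 2 held it with 1 mismatch. Since 3 of these 5 peaks come from GATA4, they are not independent. All 5 lie within 10 kb of a coding gene by the rule that chose them, whereas the shares cover CTCF peaks of the whole genome. The sets are therefore not alike in their distance from genes.

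The member richest in CpG dinucleotides at its TSS, GATA5, had no active mark there. In hg19, the 500 bp on each side of the canonical TSS held 119 CpG dinucleotides at GATA5, 90 at GATA6, 83 at GATA2, 78 at GATA3 and 66 at GATA4, against a median of 66 for coding genes. GATA5 had more CpG dinucleotides than 92.5% of coding genes and a GC content of 76.1%. Of the 10168 coding genes with at least 66 CpG dinucleotides in this window (the count of GATA4, a limit chosen after the values were seen), 84.8% had H3K4me3 past the filter within 1 kb of the canonical TSS. GATA2, GATA4 and GATA5 were among the others, although GATA2 had H3K4me3 past the filter over 4 of its other TSSs. DNA methylation was not measured.

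**Figure D4:**
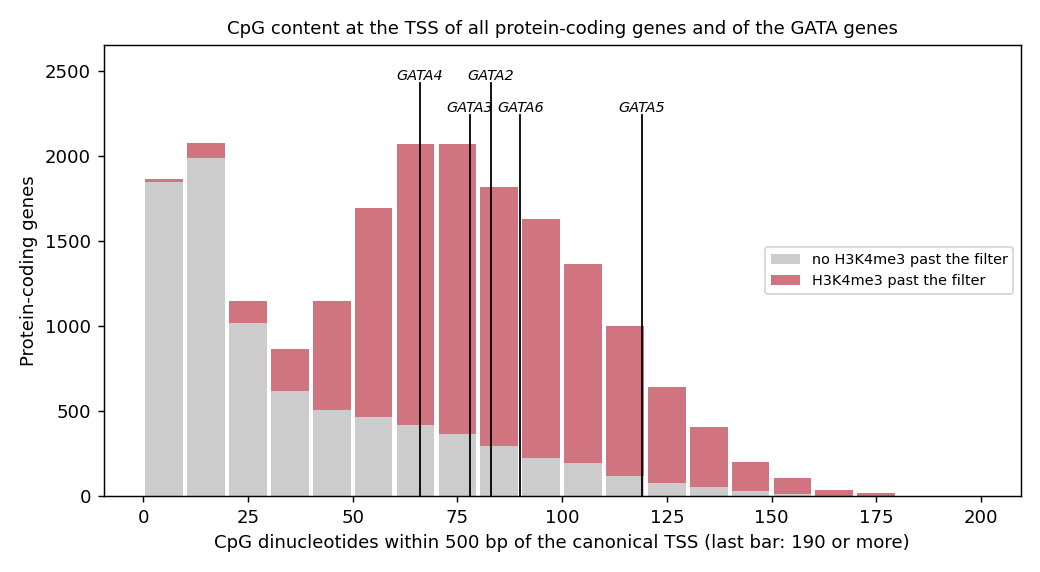
Number of protein-coding genes (y axis) by the number of CpG dinucleotides within 500 bp of the canonical TSS (x axis, bins of 10), split by whether H3K4me3 past the filter lay within 1 kb of that TSS. Vertical lines mark the GATA genes, from GATA4 with 66 to GATA5 with 119.

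Among 16 partners of GATA factors and further lineage regulators, 6 had H3K4me3 past the filter within 1 kb of the canonical TSS, against 59.1% of all coding genes. These were ZFPM1 (FOG1, a cofactor that binds GATA zinc fingers; fold enrichment 29.8), LDB1 (an adaptor of GATA complexes; 22.4), LMO4 (18.4), MEF2C (10.47) and the chromatin remodellers SMARCA4 (29.0) and CHD4 (36.2). The blood regulators LMO2, TAL1, RUNX1 and FLI1, the cardiac factors NKX2-5, TBX5 and TBX20, the cofactor ZFPM2 and GATA1 itself had no deposited H3K4me3 peak there, and LYL1 had a peak below the filter (3.94). The same 6 genes had H3K9Ac past the filter. H3K4me1 past the filter was at 6 of the 16, against 49.1% of coding genes. These were CHD4, LDB1, LMO4, ZFPM1, LYL1 (fold enrichment 5.37) and RUNX1 (5.52), and NKX2-5 had an H3K4me1 peak below the filter (3.59). Only the canonical TSS of each listed gene was used. H3K27me3 past the filter was at 0 of the 16, and TBX5 (2.71) and TBX20 (3.41) had H3K27me3 peaks below it. Of 10 other genes with a GATA-type zinc finger, not members, 7 had H3K4me3 past the filter, against 59.1% of all coding genes. The count is too small to set this list apart from that share. The 7 genes were GATAD1 (40.6), MTA1 (29.4), GATAD2A (26.9), MTA2 (26.8), MTA3 (24.7), RERE (22.1) and GATAD2B (19.7). Most of these encode subunits of the NuRD complex. GATA1, TRPS1 and ZGLP1 had no deposited H3K4me3, H3K9Ac or H3K4me1 peak. GATA1 is in both lists.

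The label of a colon epithelial line was checked by the same rule. H3K4me3 past the filter was at 6 of 10 epithelial and colon markers (EPCAM, CDH1, KRT8, KRT18, KRT19 and CDX2). This is close to the 59.1% of all coding genes, so the count does not by itself bear on the identity of the cells. The markers CDX1, KRT20, VIL1 and LGALS4, some of them of differentiated cells, had no deposited H3K4me3 peak. H3K4me3 past the filter was at 0 of 5 blood markers, 0 of the 2 endothelial markers found by symbol, 0 of 2 liver and 0 of 2 heart muscle markers, and at 1 of 4 fibroblast markers (COL1A1). H3K4me1 past the filter was at the blood marker SPI1 (fold enrichment 4.34), the heart muscle marker TNNT2 (4.38) and COL1A1 (8.12). It was at 0 of the endothelial and liver markers and at 49.1% of all coding genes. These lists are short, and no test was made.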

How the data were processed

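PIXUL-ChIP-seq peak lists of HCT116 cells were used as deposited, 1 list for each of 6 antibodies. Per the study's methods, alignment was to hg19 with BWA and broad peaks were called by MACS2 (broad cutoff 0.1) with an input as reference, and libraries carried molecular identifiers for PCR de-duplication. The submitters' processing notes name BWA 0.7.12, SAMtools 0.1.19 and MACS 1.4.2, a different caller version from that of the methods. The authors deposited for each peak a fold enrichment (linear ratio), a −log10 p-value and −log10 q-value, and a score, which was not used. The lists hold no counts, so the depth is unknown and no interval or test was possible. No pooling of replicates is stated.

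All peaks lay within the hg19 chromosomes. CTCF was given the limits of the other marks, since none is named for it. Overlaps needed 1 bp. Genes and TSSs came from GENCODE 44 on hg19 (canonical transcript, otherwise the 5′ end of the gene). The CTCF core of 12 bases was searched on both strands. Overlap code recovered 600 of 600 planted overlaps in simulated data, and the peaks found differed from bedtools 2.31.1 in 0 of 6 lists. Python 3.11.15, numpy 2.4.6, pandas 2.3.3 and matplotlib 3.10.9 were used.

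The members, the gene lists and the rule for genes named (the members, their neighbours and the lists) were chosen with earlier results of these data known. Alternatives were all deposited peaks, other limits, flanks, TSS windows and minimum overlaps, merging, and 1 mismatch in the core.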

Additional observations from a re-analysis of the deposited data

How the results depend on the processing

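No paired analysis was possible because the design gives 1 library per mark. With the fold enrichment limit multiplied by 1.5, the 42 counts and covered lengths recomputed were equal to or within 1.5 times their values. Merging peaks within 1000 bp was run for the 5 numbers of peaks per gene, with the same outcome. Without the filter, peaks numbered 12 at GATA2 (from 4), 7 at GATA3 (3), 20 at GATA4 (9), 3 at GATA5 (0) and 9 at GATA6 (3). Members marked at the canonical TSS became 2 for H3K9Ac, against 64.3% of coding genes, and 2 for H3K27me3, against 9.60%. They became 1 for H3K36me3 (against 6.49%) and 2 for CTCF (29.5%), counts too small to set the members apart from these shares. Covered lengths then became 1196 bp (H3K27me3), 11830 bp (H3K36me3) and 1951 bp (CTCF) at GATA2, 1663 bp (H3K9Ac) and 12725 bp (H3K27me3) at GATA3, 2834 bp (H3K9Ac), 4043 bp (H3K4me1) and 36560 bp (H3K27me3) at GATA4, 575 bp (H3K4me1), 679 bp (H3K27me3) and 497 bp (CTCF) at GATA5, and 1922 bp (H3K27me3), 4959 bp (H3K36me3) and 1813 bp (CTCF) at GATA6. A flank of 50 kb gave 7 peaks at GATA2, 14 at GATA4 and 7 at GATA5, no flank gave 3 at GATA4, and swapping the limits between both groups of marks gave 1 at GATA5. A window of 2.5 kb or any annotated TSS gave 2 members with H3K9Ac (from 1), 3 with H3K4me3 (from 2) and 3 with H3K4me1 (from 2). The addition was GATA2 each time. When at least 50% of the window had to be covered, 1 member kept H3K4me3 and 0 kept CTCF. With 1 mismatch, 2 CTCF peaks held the core sequence in place of 0. As these alternatives change only limits or windows, the changes follow from their construction. Depth limits what can be said of marks that were not listed.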

Other observations

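Between 10 and 50 kb from the gene bodies, peaks past the filter were most numerous at GATA5. GATA5, without any peak past the filter nearby, had 5 H3K4me1 peaks past the filter in this range. Of these, the peak from 61001349 to 61004722 on chromosome 20 had the highest fold enrichment, 10.6, and contained the TSS of RBBP8NL. The other 4 contained no annotated canonical TSS and had fold enrichments of 4.87, 5.66, 4.13 and 4.08. The nearest was 13.3 kb from the 5′ end of GATA5. The same range held 2 CTCF peaks past the filter on the 5′ side of GATA5, with fold enrichments of 9.23 and 9.01, and the former overlapped the H3K4me1 peak of 4.13. GATA2 had H3K4me1 peaks 11.4 kb from its 5′ end (fold enrichment 4.29) and 42.8 kb from its 3′ end (3.96), and CTCF 40.3 kb from its 3′ end (6.90). GATA6 had 1 H3K4me1 peak, 47.7 kb from its 3′ end (4.35). GATA3 had no peak of any of the 6 marks past the filter in this range. At GATA4, 1 CTCF peak lay 24.8 kb from the 5′ end (6.87), and the peaks of H3K4me3 (fold enrichment 23.7) and H3K9Ac (11.9) contained the TSS of FDFT1, a gene of cholesterol synthesis, 41.9 kb and 41.5 kb from the 3′ end of GATA4, with H3K4me1 peaks (4.56 and 3.98) beside them. Whether any of these peaks acts on a GATA gene was not tested.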
